A study of Mus musculus with 2 samples.

Results

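The genes described here are 10 regulators and surface markers of muscle stem cells: *Pax7*, *Calcr*, *Chodl*, *Vcam1*, *Cdh15*, *Sdc4*, *Spry1*, *Myf5*, *Myod1* and *Mymk*. They were chosen by name, as the rows with these symbols among the 32287 features of the deposited tables, and all 10 were present. Their unique molecular identifiers (UMIs, 1 per captured transcript molecule) were summed over cells gated by markers that include none of the 10 genes.

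The study profiled hind limb muscle cells by droplet-based scRNA-Seq at 7 dpi (days post injury). The labels give male C57BL/6J mice of 10 to 16 weeks with bilateral crush of the peroneal nerve, and the methods name *S100GFP*-tg mice, in which the S100B promoter drives enhanced GFP, for the antibody experiments. In both groups the tibialis anterior (TA) muscle received 2 μg of antibody in 10 μL at injury and every 2 days afterward. The control group received goat anti-mouse IgG (IgG), and the other an antibody that neutralizes the secreted protein SPP1 (SPP1-nAb). Cells of pooled mice were sorted into GFP+ and GFP- live fractions, the number of mice and the ratio of the fractions are not given in the sources used here, and each group is 1 library. No difference between the groups can therefore be tested, and every interval below is a 95% interval for counting error only.

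Satellite cells, the stem cells of skeletal muscle, lie between the fiber and its basal lamina and express the paired-box factor Pax7. In resting muscle they are quiescent, a state held by Notch signals, by the calcitonin receptor (Calcr) and by Sprouty1 (Spry1), an inhibitor of receptor tyrosine kinase signaling. On activation they raise MyoD (*Myod1*), divide, and then either return to quiescence or express myogenin, exit the cycle and fuse through Myomaker (*Mymk*).

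Before filters, 163 barcodes occurred in both libraries. After filters, 21047 IgG cells and 22282 SPP1-nAb cells remained. A cell was called myogenic-like when it held UMIs of at least 3 of 12 myogenic markers, such as *Des*, *Fgfr4* and *Megf10*, and a larger share of that list than of any of 11 other lists. The gate took 969 IgG cells (4.60%, 4.32 to 4.90%) and, in SPP1-nAb, 817 (3.67%, 3.42 to 3.92%). The share was 0.94 points lower in the latter (-0.94, -1.32 to -0.56), and this size depended on the gate. The difference was -1.88 points with at least 2 markers, -4.15 points with clusters in place of the gate and -0.30 points with at least 4 markers, the last with an interval that included 0 (-0.61 to 0.01). The gated cells' median depth was 2882 UMIs in IgG and 4122 in SPP1-nAb. Just below the gate, 727 IgG cells and 514 SPP1-nAb cells held exactly 2 markers, and 370 and 249 gated cells held exactly 3. In both libraries the gated cells held a median of 4 myogenic markers and a median of at most 1 marker of any other class, while 13 gated IgG cells and 19 of SPP1-nAb held at least 3 markers of another class.

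The gate left out a large part of the *Pax7* UMIs. It held 44.4% of all *Pax7* UMIs of the kept IgG cells and 54.5% of those of SPP1-nAb. Leiden clusters formed without the 10 genes and with myogenic markers raised held 97.9% and 97.4%. Values of these clusters, 2501 IgG cells and 1724 SPP1-nAb cells, are therefore given beside those of the gate.

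Gene positions are those of GENCODE M39 on GRCm39, and all 10 genes are protein coding. *Pax7* lies at chr4:139464373-139560839 on the minus strand, *Myf5* at chr10:107318769-107321995 on the minus strand and *Myod1* at chr7:46025870-46028526 on the plus strand. *Calcr* lies at chr6:3685680-3764714 on the minus strand, *Spry1* at chr3:37693897-37698755 on the plus strand and *Mymk* at chr2:26951627-26962228 on the minus strand. RefSeq promoter windows on GRCm38.p6, from 250 bases before to 50 bases after a start site, were matched for 7 of the 10 genes in 8 windows. *Myod1*, *Mymk* and *Vcam1* had no entry. Those of *Calcr* and *Spry1* are shown because these genes differed most between the libraries in the gate, and that of *Cdh15* because its interval included no difference. Capitals mark the E-box CANNTG, a general motif bound by MyoD-family and other factors, so a marked stretch need not be a MyoD-family site. The windows are chr6:3763574-3763873 and chr6:3764664-3764963 on the minus strand, chr3:37639697-37639996 on the plus strand and chr8:122848124-122848423 on the plus strand.
Calcr start site 1: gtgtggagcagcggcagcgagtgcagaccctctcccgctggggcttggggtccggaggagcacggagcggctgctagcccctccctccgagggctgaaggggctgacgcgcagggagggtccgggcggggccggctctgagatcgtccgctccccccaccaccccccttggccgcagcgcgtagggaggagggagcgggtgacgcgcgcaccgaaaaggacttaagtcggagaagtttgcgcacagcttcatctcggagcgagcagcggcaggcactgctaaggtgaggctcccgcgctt
Calcr start site 2: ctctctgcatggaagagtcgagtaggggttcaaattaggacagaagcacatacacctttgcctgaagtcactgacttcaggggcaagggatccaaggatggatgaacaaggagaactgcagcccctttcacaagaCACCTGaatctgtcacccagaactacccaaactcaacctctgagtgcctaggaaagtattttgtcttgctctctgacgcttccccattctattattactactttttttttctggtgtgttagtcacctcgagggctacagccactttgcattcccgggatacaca
Spry1: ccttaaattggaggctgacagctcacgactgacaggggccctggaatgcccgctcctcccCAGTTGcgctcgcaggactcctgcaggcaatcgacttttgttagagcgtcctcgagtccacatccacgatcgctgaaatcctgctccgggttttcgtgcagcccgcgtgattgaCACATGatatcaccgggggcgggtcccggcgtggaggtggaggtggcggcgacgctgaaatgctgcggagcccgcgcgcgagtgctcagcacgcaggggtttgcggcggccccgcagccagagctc
Cdh15: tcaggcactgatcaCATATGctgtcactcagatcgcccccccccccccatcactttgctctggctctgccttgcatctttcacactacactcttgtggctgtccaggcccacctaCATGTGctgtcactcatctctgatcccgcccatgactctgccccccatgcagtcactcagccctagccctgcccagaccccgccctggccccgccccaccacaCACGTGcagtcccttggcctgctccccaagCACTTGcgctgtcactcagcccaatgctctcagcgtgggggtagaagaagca
The first *Calcr* window held no E-box, the second held 1, that of *Spry1* 2 and that of *Cdh15* 4. An E-box was in 72.3% of all 32851 windows of the table. None of the 8 windows held CAGCTG, which 16.3% of all windows did, or GTGGGAA on either strand, the letters bound by the Notch effector RBPJ, which 6.38% did.

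Of the 10 genes, 6 were close to confined to myogenic cells. The myogenic clusters held between 95.9% and 98.1% of the UMIs of *Pax7*, *Myf5*, *Calcr*, *Cdh15* and *Mymk* in each library, and 91.3% (IgG) and 89.6% (SPP1-nAb) of those of *Myod1*. As a measure of free RNA, 0.34% of IgG and 0.33% of SPP1-nAb mononuclear phagocyte-like cells, which should lack the gene, had a *Pax7* UMI at median depths of 3953 and 4973 UMIs. In gated myogenic-like cells these shares were 67.2% and 68.1%.

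The other 4 genes were also expressed elsewhere. *Chodl*, a C-type lectin family transmembrane protein, stood at 409 CPM (UMIs of the gene in every 1000000 UMIs of the same cells) in IgG tenocyte-like cells and 458 CPM in those of SPP1-nAb, near its level in myogenic-like cells. *Sdc4*, a heparan sulfate proteoglycan that takes part in growth factor signaling, had 56.1% of its UMIs in phagocyte-like cells in IgG and 76.9% in SPP1-nAb. These cells were 56.7% and 67.6% of kept cells, and the level of *Sdc4* in them was 298 CPM and 327 CPM. *Spry1* had 44.6% and 45.9% of its UMIs in mesenchymal-like cells. *Vcam1*, an adhesion receptor for integrins, had 30.3% and 38.8% of its UMIs in phagocyte-like cells, at a level of 28.2 CPM and 25.5 CPM. In mesenchymal-like cells it stood at 79.3 CPM and 118 CPM.

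**Figure D1:**
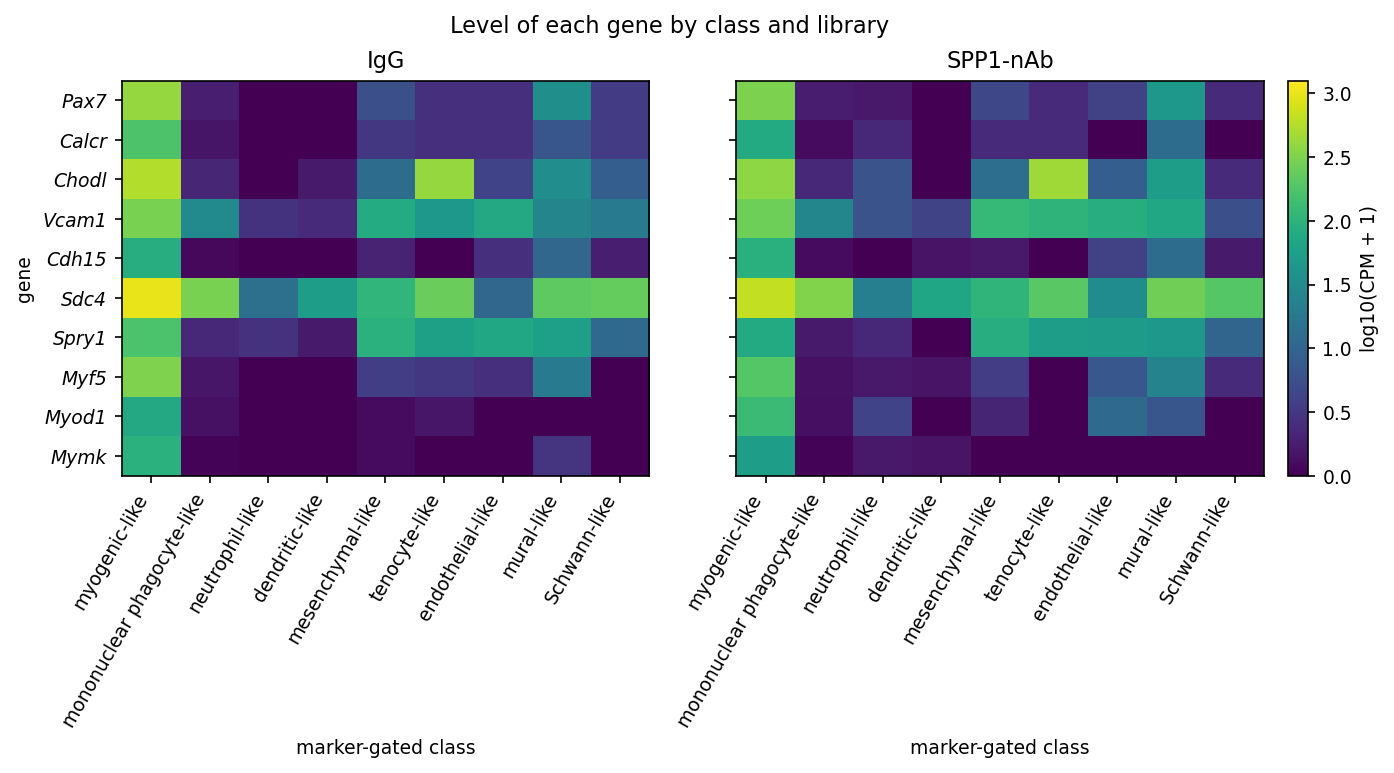
Level of each gene, as log10(CPM + 1), in 9 marker-gated classes (columns) of the IgG and the SPP1-nAb library. *Pax7*, *Calcr*, *Cdh15*, *Myf5*, *Myod1* and *Mymk* are highest in the myogenic-like column, with *Pax7* next in mural-like cells, *Chodl* is high also in tenocyte-like cells, and *Sdc4*, *Vcam1* and *Spry1* in several classes.

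Over the same 18 pools of 9 classes and 2 libraries, the levels most like that of *Pax7* were those of *Myf5*, *Cdh15* and *Fgfr4* (Pearson r of log2(CPM + 1) 0.97 for each). *Fgfr4* is a gate marker, as is *Myog* in the next sentence. For *Mymk* they were *Trim55* (0.98), *Vgll2* and *Myog* (0.97 each), for *Calcr* *Fgfr4*, *Chrdl2* and *Fndc3c1* (0.97 each), and for *Spry1* *Nfia*, *Rhoj* and *Osmr* (0.97 each). For *Myf5* they were *Cdh15*, *Jsrp1* and *Pax7* (0.97 each), for *Cdh15* *Myf5*, *Pax7* (0.97 each) and *Ano5* (0.96), and for *Chodl* *Tshr* (0.96), *Adcy2* and *Esrrg* (0.95 each). The genes most like *Vcam1* were *Zhx3* (0.91), *Rbfox1* (0.90) and *Glul* (0.89), and those most like *Sdc4* were *Lgals1* (0.90), *Nt5dc2* and *Rrp9* (0.88 each). The pools share 2 libraries, and these values are descriptions.

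The comparison of the libraries asks how quiescence and activation genes of muscle stem cells stood after nerve injury with and without SPP1 neutralization. In gated myogenic-like cells 8 of the 10 genes had a lower level in SPP1-nAb with an interval below 0, *Myod1* was higher, and the interval of *Cdh15* included 0. By the same rule 15.8% of all 7394 genes with at least 100 UMIs in 20 cells were lower and 18.5% higher. *Calcr* and *Spry1* were past 2-fold lower and none was past 2-fold higher. Of the same 7394 genes, 1.05% were past 2-fold lower and 0.744% past 2-fold higher. The median log2 ratio of SPP1-nAb over IgG was -0.60 for the 10 genes and 0.01 for all genes. The gated cells differed in makeup between the libraries, as given below with the clusters, so these ratios do not compare like cells.

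Among the markers of quiescent satellite cells, *Pax7* had a level of 404 CPM with IgG (384 to 426) and of 307 CPM with SPP1-nAb (291 to 324), a log2 ratio of -0.40 (-0.51 to -0.29). *Calcr* stood at 170 CPM and 78.1 CPM, a log2 ratio of -1.12 (-1.32 to -0.93). *Spry1* stood at 167 CPM and 78.6 CPM, a log2 ratio of -1.08 (-1.28 to -0.89). The ratio intervals of these 3 genes lay below 0, as did those of 15.8% of all 7394 genes in the gate.

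The other 4 surface markers were *Sdc4*, *Chodl*, *Vcam1* and *Cdh15*. *Sdc4*, the highest of the 10, stood at 1002 CPM and 650 CPM (log2 ratio -0.62, -0.70 to -0.55). *Chodl* stood at 557 CPM and 374 CPM (-0.57, -0.67 to -0.48). *Vcam1* stood at 295 CPM and 262 CPM (-0.17, -0.29 to -0.05). The adhesion molecule M-cadherin (*Cdh15*), which joins the satellite cell to its fiber, stood at 83.3 CPM and 91.7 CPM (0.14, -0.08 to 0.36).

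The 2 myogenic regulatory factors moved apart. *Myf5*, whose transcript is present in most quiescent satellite cells, stood at 314 CPM with IgG and 191 CPM with SPP1-nAb (-0.72, -0.85 to -0.59). *Myod1*, the factor of activated myoblasts, stood at 72.7 CPM and 128 CPM (0.82, 0.60 to 1.03). The fusion gene *Mymk* stood at 93.9 CPM and 54.3 CPM (-0.79, -1.04 to -0.55), but the 10 cells with the most *Mymk* UMIs held 48.1% of them in IgG and 66.1% in SPP1-nAb.

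These sizes depended on which gated cells were used and on their weight, and in 4 settings added after the data had been seen none of the 10 genes was past 2-fold. With all gated cells weighted equally, *Calcr* was at -0.85 and *Spry1* at -0.89. With the UMIs summed over the 759 IgG and 711 SPP1-nAb gated cells of at least 2000 UMIs they were at -0.96 and -0.99, close to 2-fold. With both changes together they were at -0.63 and -0.71, and *Pax7* was at -0.20, *Myf5* at -0.58 and *Myod1* at 0.68. With the gate applied after every cell had been thinned to 2000 UMIs, *Calcr* was at -0.34, *Spry1* at -0.61, *Sdc4* at -0.41, *Pax7* at -0.10, *Myf5* at -0.51 and *Myod1* at 0.91. *Vcam1* changed sign, to 0.06 with all gated cells weighted equally and to 0.09 after the thinned gate.

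In all myogenic clusters the ratios were -1.14 for *Calcr*, -1.04 for *Spry1*, -0.78 for *Myf5* and 0.81 for *Myod1*. *Vcam1* was at 0.00 (-0.09 to 0.09). Again *Calcr* and *Spry1* were past 2-fold lower, beside 1.12% of 8732 genes, and none was past 2-fold higher, beside 1.18%.

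**Figure D2:**
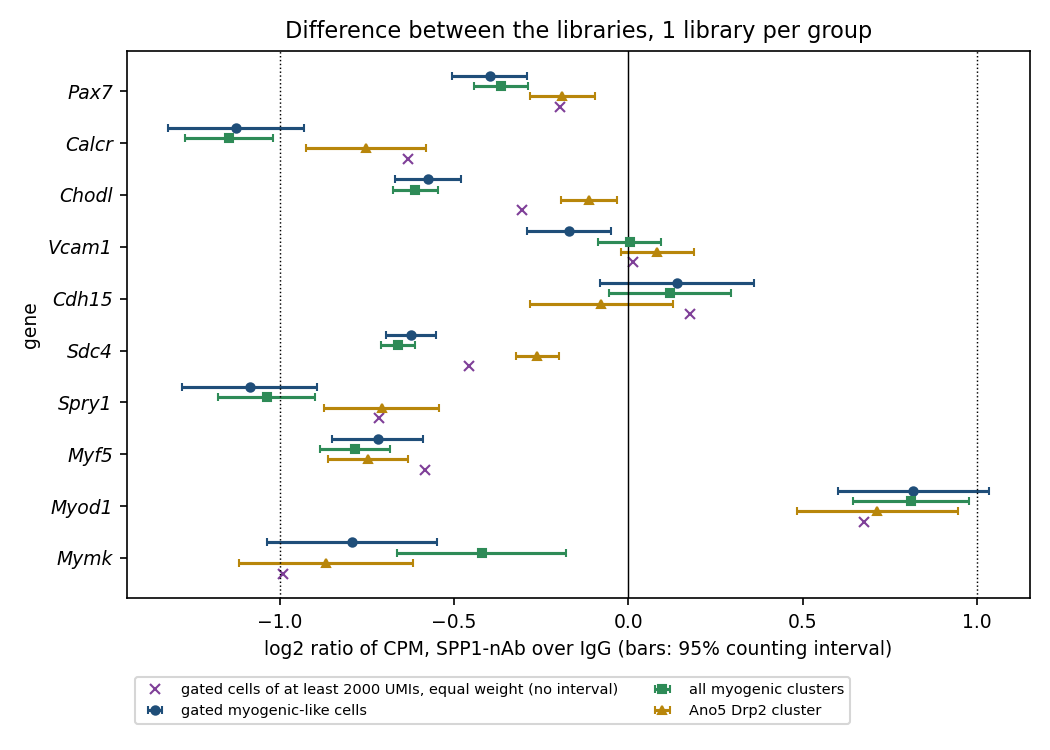
Log2 ratio of CPM, SPP1-nAb over IgG, for each gene (rows) in gated myogenic-like cells, all myogenic clusters and the Ano5 Drp2 cluster, with 95% counting intervals, and as crosses with equal weight per gated cell of at least 2000 UMIs. Dotted lines mark 2-fold. *Calcr* and *Spry1* lie beyond the lower line in the gate and in all clusters but not in the other 2 sets, and *Myod1* lies above 0 in every set.

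The myogenic clusters differed in their makeup between the libraries. A cluster led by *Ano5* and *Drp2* held 1097 IgG cells (5.21%) and 1127 SPP1-nAb cells (5.06%). A cluster led by *Nppc* and *Gal* held 1142 IgG cells (5.43%) and 189 SPP1-nAb cells (0.848%), so 85.8% of it came from 1 library, and state and library cannot be told apart for it. Its depth was low, with a median of 1794.5 UMIs in IgG and 1472 in SPP1-nAb. The gate held 294 IgG cells and 15 SPP1-nAb cells of it, and 568 and 635 of the Ano5 Drp2 cluster. In the Nppc Gal cluster *Calcr* stood at 380 CPM in IgG and *Chodl* at 1154 CPM. They stood at 179 CPM and 643 CPM in the Ano5 Drp2 cluster of the same library. How far this makeup enters the gate ratios was not tested. A shallow cluster led by *Hs6st3* and *Tenm4* held 202 IgG cells and 335 of SPP1-nAb. *Calcr* was higher there than in any other myogenic cluster of the same library. Its level was 709 CPM from 164 IgG UMIs and 449 CPM from 187 SPP1-nAb UMIs. *Chodl* was lower there (IgG 328 CPM, SPP1-nAb 252 CPM) than in the Ano5 Drp2 cluster of either library. A cycling cluster led by *Cenpf* and *Ube2c* held 60 IgG cells and 73 of SPP1-nAb.

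The Ano5 Drp2 cluster held a like share of kept cells in both libraries, but 43.9% of IgG and 65.4% of SPP1-nAb myogenic cluster cells. Its median depth was 2894 UMIs in IgG and 3443 in SPP1-nAb. Within it the differences of several genes were smaller than in the gate, but not those of *Myf5* and *Mymk*. *Myf5* was at -0.75 (-0.86 to -0.63) and *Mymk* at -0.87 (-1.12 to -0.62), against -0.72 and -0.79 in the gate. *Calcr* was at -0.75 (-0.92 to -0.58), *Spry1* at -0.71 (-0.87 to -0.54) and *Myod1* at 0.71 (0.48 to 0.94). *Pax7* was at -0.19, *Sdc4* at -0.26 and *Chodl* at -0.11, against -0.40, -0.62 and -0.57 in the gate. None of the 10 was past 2-fold there, beside 0.232% of 7314 genes lower and 0.465% higher. In the Nppc Gal cluster *Pax7* was at -0.04 (-0.29 to 0.20), *Calcr* at -0.99 and *Myod1* at 1.93, the only one of 9 genes with enough UMIs past 2-fold higher, beside 1.5% of 3389 genes, while none was past 2-fold lower, beside 4.37%. That *Myod1* value rests on few cells, since 10 cells held 70% of the SPP1-nAb UMIs of the gene there. At equal depth, with 22 SPP1-nAb cells, the difference in the share with *Myod1* was 11.9 points with an interval that included 0 (-2.47 to 34.4).

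Depth was then equalized by giving, for each cell of at least 2000 UMIs, the expected result of thinning it to 2000 UMIs. This left 759 IgG and 711 SPP1-nAb gated cells. A *Pax7* UMI was expected in 53.9% of IgG cells and 48.7% with SPP1-nAb (-5.19 points, -10.4 to 0.02). Without thinning the shares were 67.2% and 68.1%. The widest gaps were those of *Spry1*, with 30.0% and 19.0% (-11.0 points, -15.4 to -6.51), and *Myf5*, with 42.6% and 32.0% (-10.5 points, -15.5 to -5.52). *Calcr* was expected in 22.4% and 15.1% (-7.30 points, -11.3 to -3.22), *Chodl* in 59.7% and 52.5% and *Sdc4* in 72.5% and 66.2%. *Myod1* was expected in 9.26% and 13.9% (4.63 points, 1.27 to 8.02). For *Vcam1*, *Cdh15* and *Mymk* the interval of the difference included 0.

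**Figure D3:**
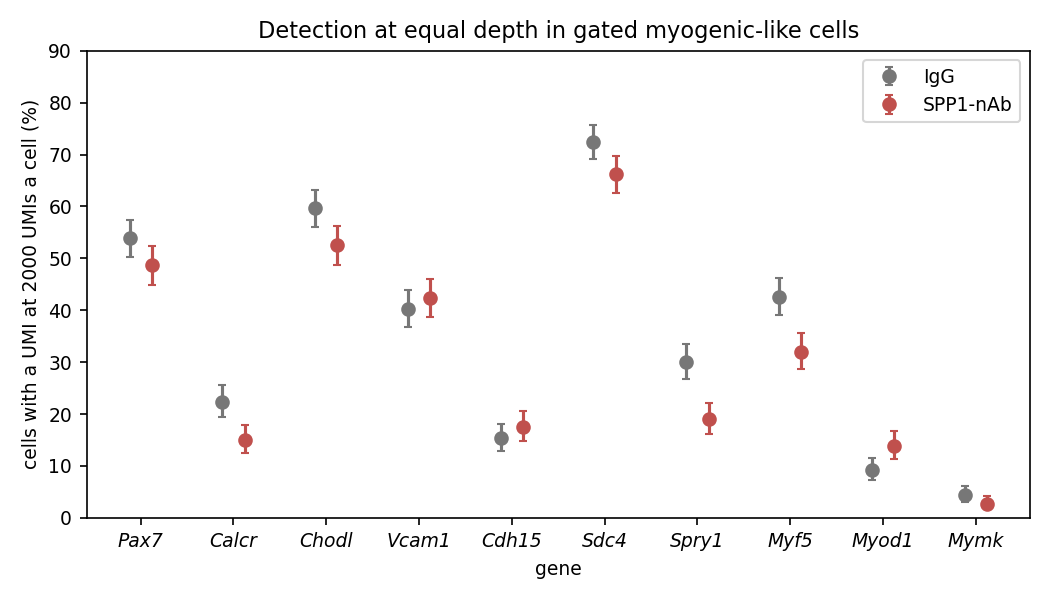
Share of gated myogenic-like cells with a UMI of each gene at 2000 UMIs a cell (y axis, percent), for IgG and SPP1-nAb, with 95% Clopper-Pearson intervals. *Spry1*, *Myf5* and *Calcr* are lower and *Myod1* is higher in SPP1-nAb, and *Vcam1* and *Cdh15* lie together.

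*Pax7* and *Myod1* were next read in the same cell. *Pax7* without *Myod1*, the pattern of quiescent or self-renewing cells, was expected in 50.5% of IgG and 43.2% of SPP1-nAb gated cells, a difference of -7.34 points (-12.5 to -2.14). Both genes were expected in 3.34% and 5.49% (2.15 points, -0.03 to 4.41). *Myod1* without *Pax7* was expected in 5.92% and 8.40% (2.48 points, -0.25 to 5.25). Single random thinnings moved the first difference from -10.6 to -2.44 points, the latter with an interval that included 0 (-7.63 to 2.76). The interval also included 0 with at least 4 markers (-4.51 points, -10.5 to 1.5) and with the gate applied after thinning (-6.07 points, -12.7 to 0.67). Without thinning, *Pax7* alone was found in 59.4% and 54.2% and both genes in 7.74% and 13.8%. *Myod1* alone was then found in 7.43% and 9.30%, and neither in 25.4% and 22.6%. In all myogenic clusters the share with *Pax7* alone was 53.4% and 47.9% at equal depth (-5.54 points, -9.56 to -1.50).

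**Figure D4:**
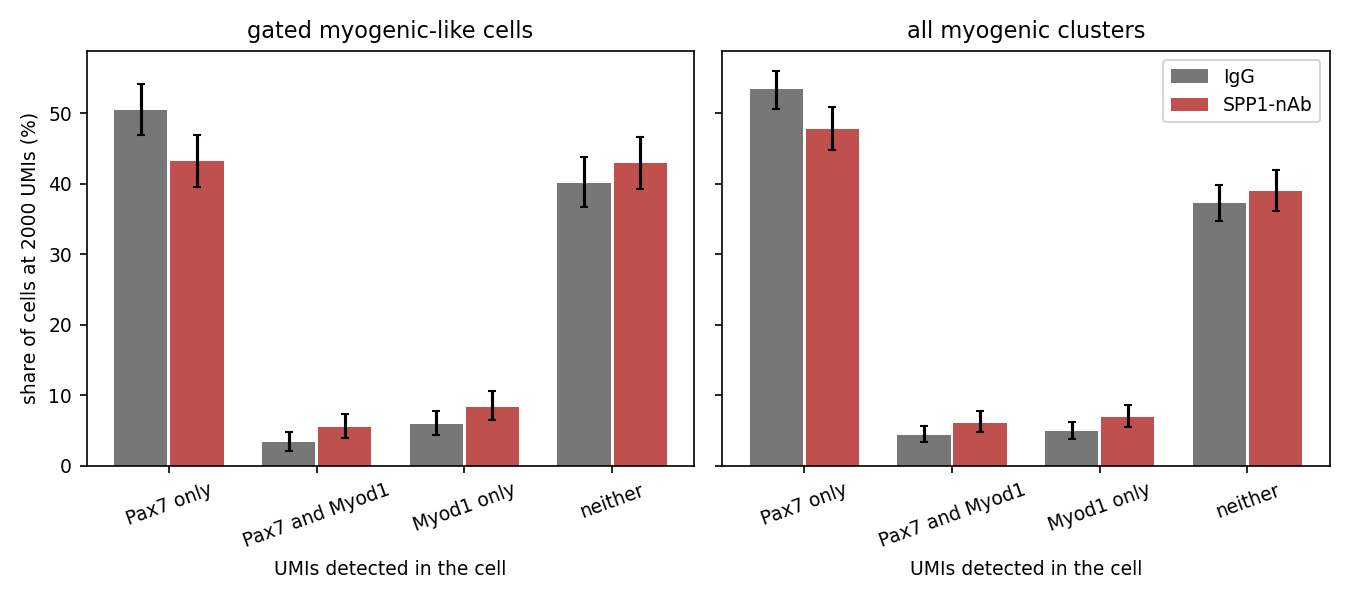
Expected share of cells (y axis, percent) with UMIs of *Pax7*, *Myod1*, both or neither at 2000 UMIs a cell, in gated myogenic-like cells and in all myogenic clusters, with 95% Clopper-Pearson intervals. *Pax7* alone is lower in SPP1-nAb than in IgG in both panels.

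*Chodl* and *Calcr* were also read in cells with and without *Pax7*. In IgG, *Chodl* was expected in 69.2% of gated cells with *Pax7* and 48.5% of those without, and *Calcr* in 26.2% and 18.0%. In SPP1-nAb the shares were 63.0% and 42.6% for *Chodl* and 19.3% and 11.1% for *Calcr*. The intervals of cells with and without *Pax7* did not overlap for *Chodl* in either library, overlapped for *Calcr* in IgG (22.0 to 30.7% and 14.1 to 22.4%), and overlapped for *Vcam1* and *Cdh15* in both. *Mymk* was expected in 0.13% of IgG cells with *Pax7* and 9.31% of those without. Cells with *Calcr* had *Spry1* in 44.4% of cases in IgG and 34.5% in SPP1-nAb, against 25.9% and 16.3% of cells without *Calcr*.

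The gated cells were split by genes outside the 10 into differentiating, cycling and remaining cells. Differentiating cells held UMIs of at least 2 of 7 genes such as *Myog* and *Mymx*, and cycling cells of at least 2 of 7 such as *Mki67*. *Myog* and *Mymx* are also gate markers, so a cell with both already held 2 of the 3 markers needed. The gate held 96.6% (IgG) and 94.5% (SPP1-nAb) of all *Mymk* UMIs, a larger part than of *Pax7*. The shares below are therefore shares of the gate, which favors differentiating cells. At equal depth 5.84% of IgG and 5.16% of SPP1-nAb cells were differentiating (-0.68 points, -3.11 to 1.77) and 4.61% and 6.29% were cycling (1.69 points, -0.73 to 4.15). Neither difference was detectable at this depth. Without thinning the differentiating share was higher in SPP1-nAb, with 61 IgG cells (6.30%) and 68 SPP1-nAb cells (8.32%), and 49 (5.06%) and 60 (7.34%) were cycling.

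Over the states *Pax7* and *Myod1* had opposite orders, each the same in both libraries. *Pax7* stood at 510 CPM in remaining, 191 CPM in cycling and 19.8 CPM in differentiating IgG cells, and at 436, 156 and 53.9 CPM in those of SPP1-nAb. *Myod1* was lowest in remaining cells, with 52.4, 106 and 153 CPM in IgG and 75.4, 172 and 251 CPM in SPP1-nAb. *Mymk* had 335 of its 337 gated UMIs in differentiating IgG cells and 225 of 239 in those of SPP1-nAb. *Calcr* had 0 UMIs in differentiating IgG cells and 2 in those of SPP1-nAb, beside 591 and 334 in remaining cells. Between differentiating and remaining cells, 8 of the 10 genes were past 2-fold lower in IgG, beside 21.9% of 4508 genes, and 7 in SPP1-nAb, beside 24% of 4842, the exception being *Cdh15* at -0.24 (-0.65 to 0.15). *Myod1* and *Mymk* were past 2-fold higher in each, beside 11.1% and 12.8% of genes.

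Within the remaining cells none of the 9 genes with enough UMIs was past 2-fold, beside 0.741% of 6071 genes lower and 0.56% higher. There *Calcr* was at -0.83 (-1.03 to -0.63), *Spry1* at -0.82 (-1.03 to -0.62), *Myf5* at -0.58 (-0.72 to -0.44), *Pax7* at -0.23 (-0.34 to -0.11), *Sdc4* at -0.44 (-0.51 to -0.36) and *Chodl* at -0.31 (-0.41 to -0.21). *Myod1* was at 0.52 (0.21 to 0.85), while *Vcam1* and *Cdh15* were each at 0.04 with intervals that included 0. In differentiating cells *Mymk* stood at 665 CPM with IgG and 270 CPM with SPP1-nAb (-1.30, -1.55 to -1.05), a value that rests on few cells. *Pax7* and *Myf5* lay there in the direction opposite to that in the gate, *Pax7* at 1.44 (0.43 to 2.60, from 10 IgG and 45 SPP1-nAb UMIs) and *Myf5* at 0.97 (0.14 to 1.88), and *Cdh15* was at 1.04 (0.30 to 1.84). At equal depth the share of these cells with a UMI differed by 7.31 points for *Pax7* (-2.90 to 17.6). For *Myf5* it differed by 6.63 points (-4.23 to 17.3) and for *Cdh15* by 7.54 points (-4.52 to 19.2). All 3 of these intervals included 0, while that of *Mymk* did not (-27.8 points, -44.1 to -9.82). The cells compared here had been assigned to states from unthinned counts, in libraries of unequal depth.

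**Figure D5:**
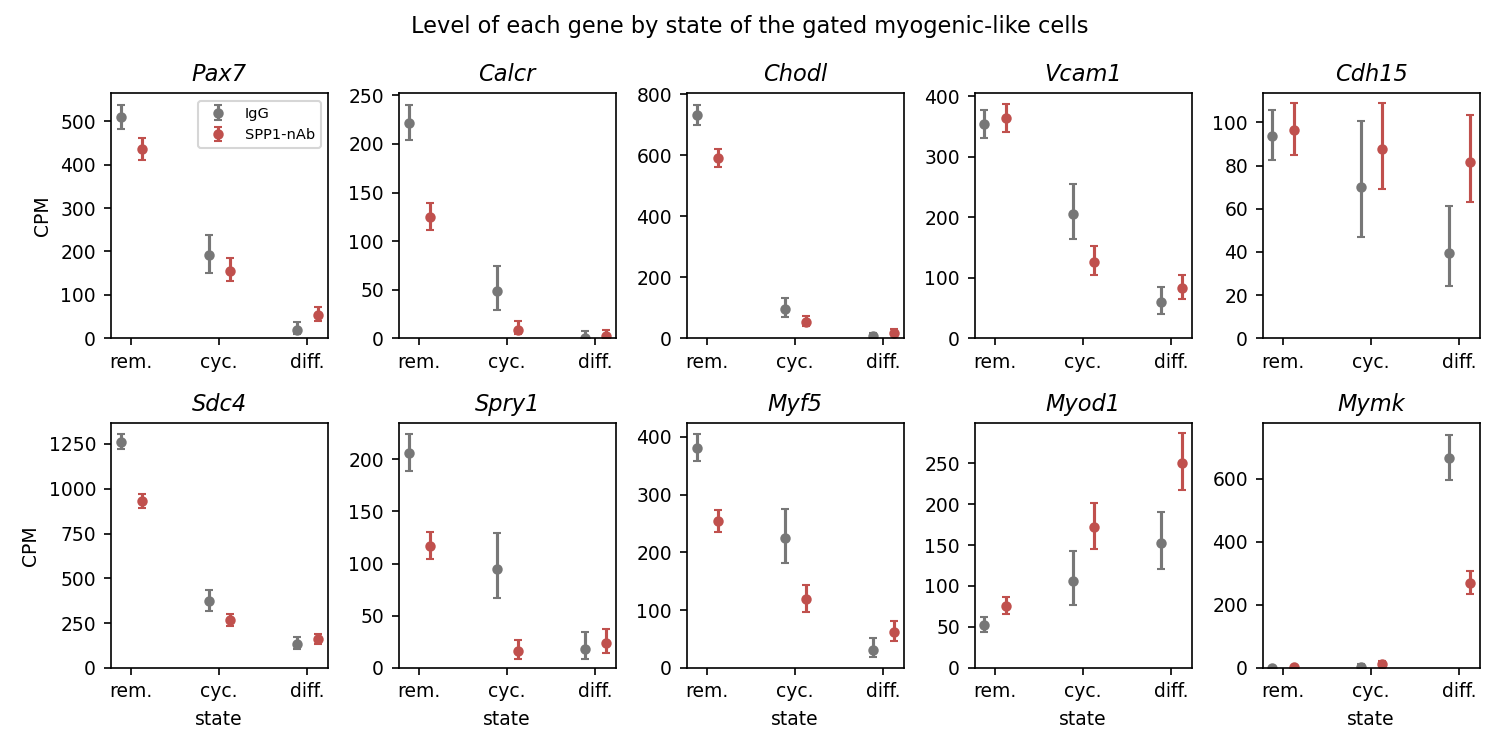
CPM of each gene (y axis, each panel from 0) in remaining (rem.), cycling (cyc.) and differentiating (diff.) gated cells of IgG and SPP1-nAb, with 95% Poisson intervals. *Mymk* and *Myod1* are highest in differentiating cells, while *Pax7*, *Calcr*, *Chodl* and *Sdc4* are highest in remaining cells of both libraries.

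Other genes of the pathway were read from lists. Of 12 genes associated with quiescence, 1 was past 2-fold lower and none higher in the gate, with a median of -0.37. *Tek*, the angiopoietin receptor, was at -1.39 and the Notch target *Hes1* at -0.90, while *Hey1* was at 0.05. Of 13 cell cycle and growth genes 12 had enough UMIs, with a median of 0.30, and *Ccnb1*, a mitotic cyclin, was past 2-fold higher at 1.65. *Birc5* was at 0.92 and *Ccnd1* at -0.09. The median of this list was 0.51 in all myogenic clusters, 0.41 in the Ano5 Drp2 cluster (4 genes) and 0.34 in the Nppc Gal cluster (3 genes). It was -0.42 in the Cenpf Ube2c cluster and -0.06 in the remaining gated cells (3 genes). Cycling gated cells had a median depth of 7428 UMIs in IgG and 13089 in SPP1-nAb. Of 13 paired and myogenic factors and cofactors none was past 2-fold, with a median of -0.23. Their ends were *Id3* at -0.48, *Msc* at -0.46, *Id2* at 0.29 and *Myf6* at 0.32. Of 9 differentiation and fusion genes, *Myl4* was past 2-fold lower at -1.14 and *Actc1* was at -0.59, while *Chrng* was at 0.81 and *Cdkn1a* at 0.32.

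Other lists also differed between the libraries in the gate. All 10 early response and dissociation genes were lower in SPP1-nAb, with a median of -0.70, and *Egr1* at -1.08 and *Fos* at -1.05 were past 2-fold. Their summed level was 10014 CPM with IgG and 5532 CPM with SPP1-nAb. The median of this list was -0.55 in all myogenic clusters, -0.40 in the Ano5 Drp2 cluster and 0.20 in the Nppc Gal cluster. It was -0.35 in the Hs6st3 Tenm4 cluster (6 genes) and -1.10 in the Cenpf Ube2c cluster (8 genes). Muscle fiber transcripts had a median of 0.56 and summed to 2878 CPM and 3987 CPM, with *Eno3* at 1.45 and *Mb* at 1.24 past 2-fold higher among 8 of 9 with enough UMIs. The median gated cell held 0 of these UMIs. They numbered 10327 in IgG and 17560 in SPP1-nAb gated cells but 1478 and 2639 in all myogenic clusters (225 CPM and 412 CPM). Those clusters held 954 of 969 IgG and 792 of 817 SPP1-nAb gated cells, so most of these UMIs lay in few gated cells. In the gate, mural markers were the highest list of another class, at 760 CPM with IgG and 575 CPM with SPP1-nAb, with 6 of 7 detected in each library. That list includes *Notch3*, which is also in the quiescence list. Mesenchymal markers summed to 341 CPM and 217 CPM with 8 of 8. Phagocyte markers summed to 86.4 CPM and 98.5 CPM with 10 of 10, and neutrophil markers to 4.18 CPM and 29.7 CPM with 6 of 7. The part of these lists in the results above was not tested.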

How the data were processed

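The authors deposited, for each of the 2 libraries, raw UMI counts per gene and barcode. The file headers name Cell Ranger 9.0.1, the submitters' processing notes Cell Ranger 8.0.0 and GRCm39, and the methods also GRCm38. IgG held 97607674 UMIs on 23779 barcodes and SPP1-nAb 127719916 on 25069. Barcodes had to show over 200 genes and under 10% of UMIs from mitochondrial genes, and the 10% with the highest doublet scores were removed per library. Clusters used 2000 variable genes without the 10 genes, 30 principal components without integration and Leiden resolution 1 (Python 3.11.15, scipy 1.17.1, leidenalg 0.10.2). Levels were UMIs summed per class over all UMIs of the same cells. Intervals were exact Poisson for levels, conditional binomial for ratios and Clopper-Pearson for shares. Of these, only the ratio intervals were tested on simulated data, which were Poisson counts without the uneven spread of UMIs over cells. Shares at 2000 UMIs are expected over all thinnings. A single thinning had been used first, and this was changed once 2 thinnings were seen to give different values. With 1 library per group no test was run. The gene set, lists and rules were chosen with earlier results of these data known. Named genes were the 10 genes, the 2 largest ratios per direction of each list and the 3 genes most like a member, which are not reported here for *Myod1*. Alternatives covered the gate, filters, doublets, free RNA, the weight and depth of cells and the denominator.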

Additional observations from a re-analysis of the deposited data

Results flagged for a closer look

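Of the 10 genes, 3 had opposite directions in myogenic-like cells and in another class, with both intervals excluding 0. At least 100 UMIs of the gene were required in each class. How many of all genes met this rule was not counted, so it is not known whether 3 of 10 is more than usual. With fewer UMIs, *Vcam1* in mural-like cells (1.52, 0.58 to 2.56) and *Sdc4* in endothelial-like cells (1.70, 0.34 to 3.30) also lay opposite. The difference between classes was not tested. *Vcam1* was at -0.17 on the log2 scale in gated myogenic-like cells, at 0.57 in mesenchymal-like and at 1.24 in tenocyte-like cells, while it was at 0.00 in all myogenic clusters. *Sdc4* was at -0.62 in myogenic-like and at 0.13 in mononuclear phagocyte-like cells. *Chodl* was at -0.57 in myogenic-like and at 0.16 in tenocyte-like cells.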

How the results depend on the processing

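The difference in the myogenic-like share kept its direction under every alternative run but not its size. It was -1.88 points with at least 2 markers, -0.30 points (-0.61 to 0.01) with at least 4 and -4.15 points with clusters in place of the gate, and within its interval otherwise. The number of genes past 2-fold was 2 or 3 except in 4 settings added after the data were seen, where it was 0. These were equal weight of all gated cells, the UMI sum of gated cells of at least 2000 UMIs, equal weight of the latter, and a gate after thinning. *Mymk* joined *Calcr* and *Spry1* with 20% of doublet scores removed and without the 10 cells with the most UMIs of the gene. The differences in the share with *Pax7* alone and in the differentiating share stayed within their intervals. The former had an interval that included 0 with at least 4 markers (-4.51, -10.5 to 1.5), after the thinned gate (-6.07, -12.7 to 0.67) and in the highest of 100 single thinnings (-2.44, -7.63 to 2.76). The classes with both genes, *Myod1* alone or neither were not rerun. Of the 10 log2 ratios, those of 9 genes kept their sign in every setting, and *Vcam1* did not. No paired analysis was possible because each group is 1 library. Counting error is the limit that depth sets, and the spread between mice is unknown.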
